A study of Mus musculus with 5 samples.

Results

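The 44 genes described here include the Frizzled and LRP receptors, the ROR and RYK receptors and the R-spondins with their receptors and ligases. The others are the secreted antagonists, listed with the Dickkopf receptor gene Kremen1, and the nuclear effectors and feedback genes. All 44 were chosen by symbol from the 45706 rows of the deposited table, and each symbol matched 1 row. RNA was sequenced from PDGFRa+ cells of Balb/c mice, sorted from mammary glands 4 and 5. The involution group had 3 libraries, from glands taken 6 days after weaning, and the nulliparous group had 2 libraries. PDGFRa, the alpha receptor for platelet-derived growth factor, is a surface marker of fibroblasts. The glands 6 days after weaning had also passed through pregnancy and lactation, so these histories and involution itself cannot be told apart. The series calls the libraries biological replicates and does not say how many animals each held. The p-values given here measure the spread between these libraries.

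Wnt proteins are secreted lipid-modified signals that bind Frizzled receptors, together with the co-receptors LRP5 and LRP6 or with the receptors ROR1, ROR2 and RYK. In the canonical branch the signal spares beta-catenin from destruction, and beta-catenin then enters the nucleus and acts with the factors TCF7, LEF1, TCF7L1 and TCF7L2. R-spondins bound to LGR receptors remove the ubiquitin ligases ZNRF3 and RNF43, which otherwise clear Frizzled from the cell surface. Secreted antagonists bind Wnt proteins (SFRPs, FRZB, WIF1), block LRP5 and LRP6 (DKKs) or strip the lipid from Wnt proteins (NOTUM). In the mammary gland, Wnt and R-spondin signals pass between hormone-responsive luminal cells, basal cells and stroma, and are known for their part in branching and in the maintenance of stem cells.

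Each deposited value was read as the log2 of a scaled read count plus an offset of about 11.85. A gene without reads then stands at 3.57, and differences of weakly expressed genes are understated. Some values lay slightly below 3.57, such as 3.52 for the milk protein gene Wap in nulliparous replicate 1. A count plus an offset cannot give such values, so this reading is approximate. Unlogged library totals ran from 41000000 to 43000000 in involution libraries and were 37600000 and 38900000 in nulliparous libraries. Pdgfra, the gene of the sort marker, stood at 16.09, 15.88 and 15.69 in involution replicates 1, 2 and 3 and at 15.87 and 15.93 in nulliparous replicates 1 and 2. Of 10 fibroblast markers, 0 were near the value without reads in all libraries. The fibroblast marker Pdpn rose by 1.38 (adjusted p = 0.00555 in limma), and the other 9 did not pass. Groups did not overlap for 7 of the 10, with 6 higher and 1 lower in involution libraries. RNA of epithelial markers was present in every library and differed between libraries of the same group. The scaled counts above the offset of 10 basal epithelial markers summed to 6380, 2484 and 1313 in involution replicates 1, 2 and 3, and to 12072 and 3725 in nulliparous replicates 1 and 2. Those of 14 luminal markers summed to 62584, 25364 and 12683 in the involution libraries and to 42388 and 15752 in the nulliparous libraries. The milk protein gene Csn2 alone gave 30500, 9880 and 4740 of these in involution libraries and 6450 and 199 in nulliparous libraries. The keratin gene Krt8 gave 2610, 1070 and 434 in involution libraries and 5150 and 1970 in nulliparous libraries. Of the 14 log2 differences, 4 were positive and 10 negative. The scaled counts of 14 macrophage markers summed to 17694, 11417 and 7051 in the involution libraries and to 6617 and 3733 in the nulliparous libraries. In limma 2 macrophage markers, Adgre1 and Lyz2, rose. The scaled counts of 8 B and plasma cell markers summed to 23587, 10474 and 5580 in the involution libraries and to 751 and 572 in the nulliparous libraries. The immunoglobulin gene Igha and the joining chain gene Jchain rose, by 5.92 and 4.88 (adjusted p = 0.00709 and 0.00637 in limma). The part of macrophage or plasma cell RNA in the values of the members was not tested.

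Among the members that could be tested, most that changed were lower 6 days after weaning. Lgr5 fell by 2.30 on the log2 scale, Wif1 by 2.27 with a wider spread, Rspo1 by 2.02 and Tcf7 by 2.00, Fzd4 fell by 1.00, and Tcf7l1 and Fzd2 by 0.48 and 0.45. Dkk3 was the only member that rose at this threshold, by 1.19. The groups were compared with limma over all 15912 genes whose mean was at least 10 units above the offset (4.45 on the log2 scale), and a gene was called at a Benjamini-Hochberg adjusted p under 0.05. Of the 44 members, 39 passed this filter, and 1 was called higher, 7 lower and 31 were not called. Of all genes tested 11.3% were called, 6.65% higher and 4.66% lower, while 2.56% of the tested members were higher and 17.9% lower. At an unadjusted p under 0.05, 3 members were higher and 14 lower, and 14.5% of all genes tested were higher and 14.5% lower. The median difference was -0.29 over the tested members and -0.03 over all genes tested. Groups did not overlap for 23 of the 39 members, or 59.0%, against 47.0% of all genes tested. Of the 23, 7 were higher and 16 lower, where 21.9% and 25.1% of all genes were.

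**Figure D1:**
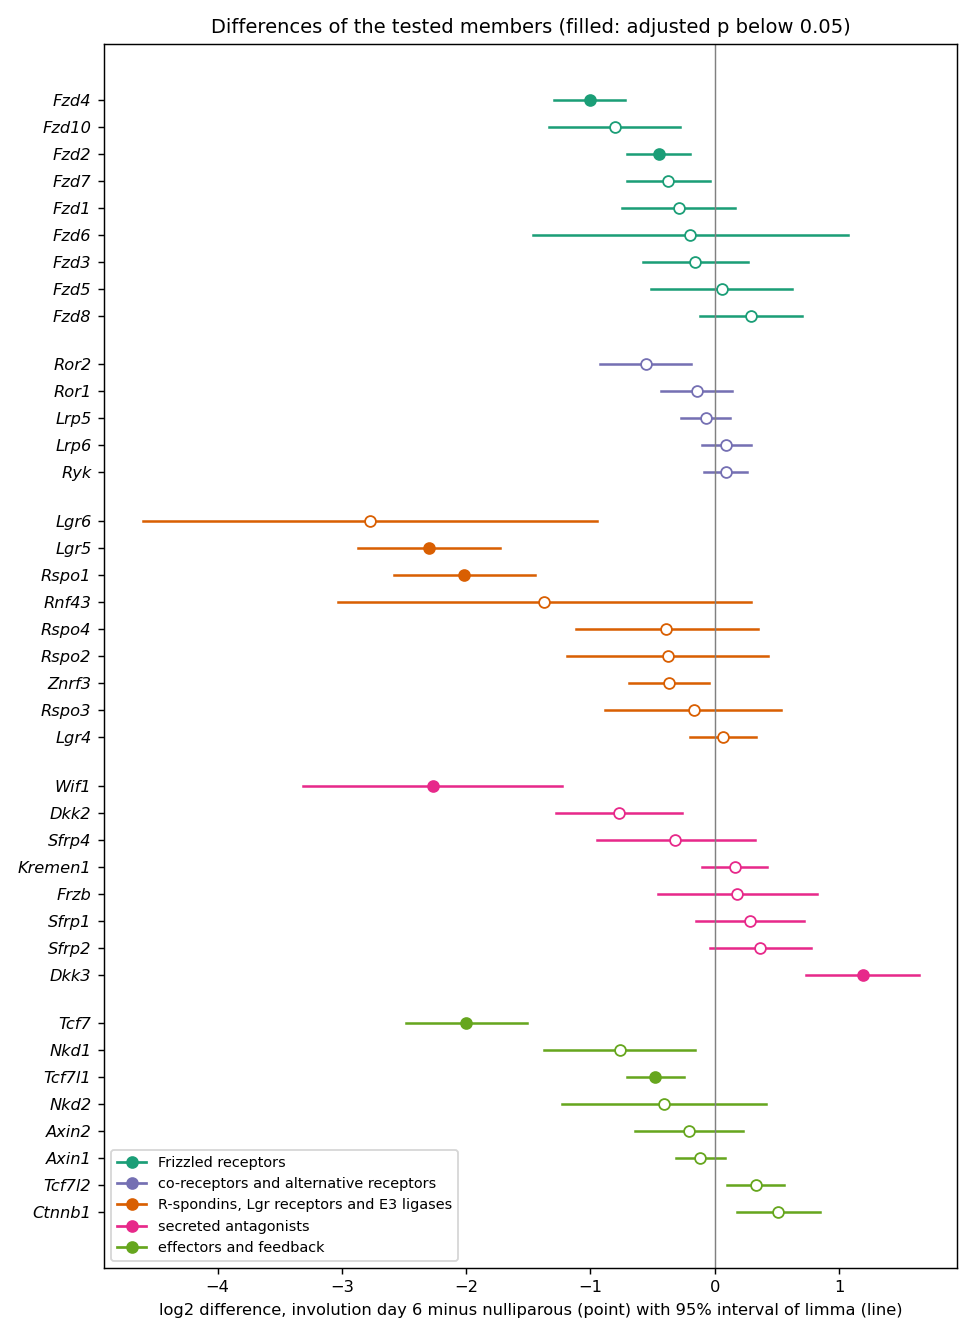
Log2 difference of each of the 39 tested members, involution day 6 minus nulliparous (horizontal axis), with the 95% interval from limma as a line. Filled points passed at an adjusted p under 0.05: 7 lie left of 0, from Lgr5 at -2.30 to Fzd2 at -0.45, and Dkk3 lies right of 0 at 1.19.

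Of these 8 calls, those of Rspo1, Lgr5, Tcf7 and Fzd4 passed in every one of the alternative analyses in which they were tested, and the other 4 did not. Lgr5 was not tested under the strictest filter on low values. Without involution replicate 1, 2 or 3, 6, 4 and 5 members were called lower. The 6 include Lgr6, which was not called with all libraries. In every fit without 1 library, fewer of all genes were called, both higher and lower. The count called higher was 0 without nulliparous replicate 1 and 2 without involution replicate 3. When all 28311 rows with reads were tested, where 1.97% of genes were called (1.14% higher and 0.83% lower), the same 4 genes were the members called, all lower. With libraries scaled to equal sums, the split of all calls was 803 higher and 1731 lower, against 1058 and 742 as deposited, and 13 members were lower and 1 higher. In bulk RNA, fewer cells of a type and less RNA per cell cannot be told apart, and this applies to each difference given here.

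RefSeq promoter windows, from 250 bases before to 50 after a gene's start on GRCm38.p6, were given for 28 of the 44 members in 35 windows. The windows of Rspo1, Fzd4 and Wif1 are shown as examples of members that fell, one each of an R-spondin, a receptor and a secreted antagonist, with the 50 bases after the start in capitals. Windows of Tcf7 and Tcf7l1, which also fell, are not printed. The Rspo1 window is chr4:124986180-124986479 on the plus strand, the Fzd4 window chr7:89404116-89404415 on the plus strand and the Wif1 window chr10:121033754-121034053 on the plus strand.
Rspo1: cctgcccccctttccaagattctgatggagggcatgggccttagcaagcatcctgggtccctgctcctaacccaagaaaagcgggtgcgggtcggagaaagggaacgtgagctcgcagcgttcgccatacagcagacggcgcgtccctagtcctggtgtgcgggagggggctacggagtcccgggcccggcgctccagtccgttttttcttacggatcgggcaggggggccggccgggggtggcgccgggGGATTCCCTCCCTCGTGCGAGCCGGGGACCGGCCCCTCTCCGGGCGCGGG
Fzd4: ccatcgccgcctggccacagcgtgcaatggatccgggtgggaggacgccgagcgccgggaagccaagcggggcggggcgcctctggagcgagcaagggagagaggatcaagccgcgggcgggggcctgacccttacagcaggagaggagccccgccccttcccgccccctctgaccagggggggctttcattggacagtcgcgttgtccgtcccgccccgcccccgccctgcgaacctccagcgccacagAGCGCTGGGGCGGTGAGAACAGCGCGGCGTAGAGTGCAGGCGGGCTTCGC
Wif1: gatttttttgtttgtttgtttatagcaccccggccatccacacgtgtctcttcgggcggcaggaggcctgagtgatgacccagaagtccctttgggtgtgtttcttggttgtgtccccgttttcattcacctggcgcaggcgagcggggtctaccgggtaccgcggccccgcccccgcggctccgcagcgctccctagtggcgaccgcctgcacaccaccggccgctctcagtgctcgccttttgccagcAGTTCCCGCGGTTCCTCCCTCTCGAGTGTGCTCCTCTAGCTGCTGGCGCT
All 3 windows are rich in G and C, at 69.0%, 72.7% and 63.0%, and hold 29, 32 and 25 CpG dinucleotides. The median over the 35 member windows was 66.7% and 24, and over all 32851 windows of this length 52.7% and 7. The TCF/LEF motif was searched as CTTTGAA and CTTTGAT on both strands. It was found in 1 of the 35 member windows (2.86%), that of Dkk1, against 8.65% of all windows. These letters are not in the windows of Rspo1, Fzd4 or Wif1. Member windows had a higher median G and C content than all windows, and the motif shares were not matched for it. The part of base composition in the lower share of member windows was not tested.

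Of 9 tested Frizzled receptor genes, 2 fell and 0 rose in limma, or 22.2% lower, beside 4.66% of all genes tested lower and 6.65% higher. At an unadjusted p under 0.05, 4 were lower and 0 higher, beside 14.5% of all genes each way. Fzd4, whose product binds Wnt proteins and also the ligand norrin, lies on chromosome 7 from 89404355 to 89413134 (GRCm38). It stood at 10.57, 10.40 and 10.21 in involution replicates 1, 2 and 3, against 11.37 and 11.42 in nulliparous replicates 1 and 2. All involution libraries lay below both nulliparous libraries, and the gap was wider than the spread within either group. Fzd4 fell by 1.00 ± 0.12 (log2 difference ± SE, adjusted p = 0.00637 in limma, n = 3 and 2), a 2.0-fold lower mean of scaled counts above the offset. Fzd4 is also known in blood vessels. The scaled counts of 7 pericyte markers summed to 7583, 6275 and 4703 in involution libraries, against 9855 and 10634 in nulliparous libraries. Those of 9 endothelial markers summed to 13332, 8652 and 8504 in involution libraries, against 14226 and 10433 in nulliparous libraries. Of these markers 0 passed in limma, with 0 endothelial and 3 pericyte markers lower at an unadjusted p under 0.05, and the part of vessel RNA in the fall of Fzd4 was not tested.

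Fzd2, on chromosome 11 from 102604396 to 102608058, stood at 11.23, 11.32 and 11.02 in involution libraries, against 11.67 and 11.61 in nulliparous libraries. It fell by 0.45 ± 0.11 (adjusted p = 0.0452 in limma). This call rests on every library: the adjusted p in limma was 0.0956, 0.0695 and 0.0619 without involution replicate 1, 2 or 3, and 0.174 and 0.135 without nulliparous replicate 1 or 2. Fzd7 and Fzd10 also had groups that did not overlap, without passing. Fzd10 stood at 7.23, 6.86 and 7.46 in involution libraries, against 8.01 and 7.97 in nulliparous libraries, a difference of -0.80 ± 0.22 (adjusted p = 0.0648 in limma). Fzd7 differed by -0.38 ± 0.14 (adjusted p = 0.134 in limma).

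The other Frizzled genes gave no difference beyond their spread. The differences of Fzd1, Fzd3 and Fzd8 were -0.29, -0.16 and 0.29, with 95% intervals from -0.75 to 0.16, from -0.58 to 0.27 and from -0.12 to 0.70. Fzd5 differed by 0.06, a value that was -0.08 with libraries scaled to equal sums. Fzd6 was the least certain, at -0.20 with an interval from -1.46 to 1.07. Its mean was 7.41 ± 0.76 in involution libraries and 7.61 ± 0.85 in nulliparous libraries (SD, n = 3 and 2). Fzd9 was near the value without reads, between 3.56 and 3.83 in involution libraries and at 3.94 and 3.80 in nulliparous libraries, and was not tested.

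**Figure D2:**
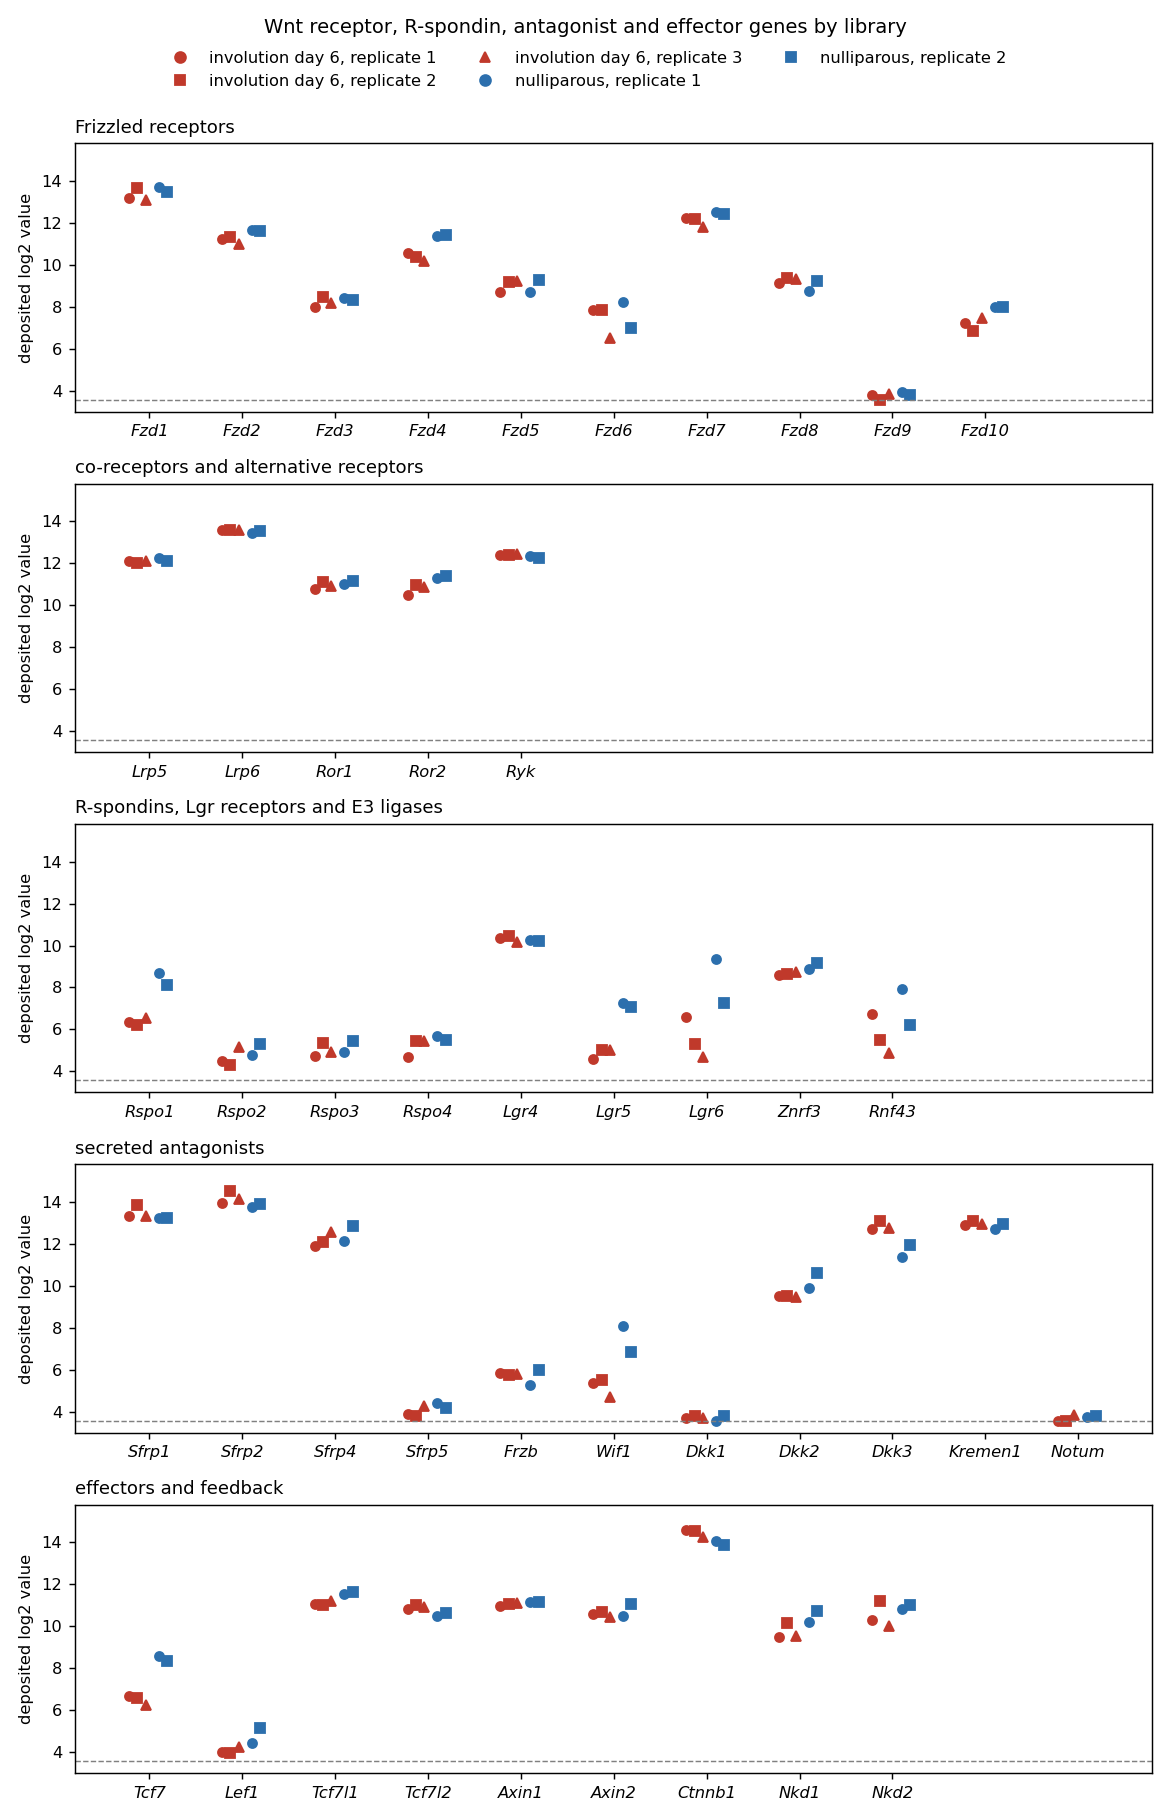
Deposited log2 values (vertical axis) of all 44 members in each library, by role, with involution libraries in red left of nulliparous libraries in blue and the marker shape giving the replicate. The dashed line is the value of a gene without reads, 3.57. Rspo1, Lgr5 and Tcf7 show wide gaps between groups, while Lgr6 and Rnf43 spread widely within groups.

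None of the 5 co-receptor and alternative receptor genes passed in limma. At an unadjusted p under 0.05, 1 of them, Ror2, was lower, where 14.5% of all genes were. Ror2, a receptor tyrosine kinase for WNT5A, stood at 10.50, 10.97 and 10.89 in involution libraries, against 11.28 and 11.40 in nulliparous libraries. The groups did not overlap, and the difference was -0.55 ± 0.15 (adjusted p = 0.0656 in limma). Its paralogue Ror1 differed by -0.14, with an interval from -0.43 to 0.14. The intervals of the other members were narrow. Lrp5 differed by -0.07 (from -0.27 to 0.12), Lrp6 by 0.09 (from -0.10 to 0.29) and the pseudokinase receptor gene Ryk by 0.09 (from -0.09 to 0.26). With libraries scaled to equal sums Lrp6 and Ryk were each at -0.05, and with quantile normalization Lrp6 was at -0.04.

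Of 9 tested genes of the R-spondin module, Rspo1 and Lgr5 fell and 0 rose in limma. That is 22.2% lower, beside 4.66% of all genes tested lower and 6.65% higher. At an unadjusted p under 0.05, 4 were lower and 0 higher, beside 14.5% of all genes each way. Rspo1, a secreted amplifier of Wnt signals, lies on chromosome 4 from 124986430 to 125009099. It stood at 6.34, 6.23 and 6.55 in involution libraries, against 8.68 and 8.10 in nulliparous libraries, and the groups were far apart. It fell by 2.02 ± 0.23 (adjusted p = 0.00601 in limma), and its mean scaled count above the offset was 4.64-fold lower. The other R-spondin genes were weakly expressed in both groups. Rspo2, Rspo3 and Rspo4 had means of 4.66, 5.00 and 5.19 in involution libraries and 5.04, 5.18 and 5.57 in nulliparous libraries. Their differences of -0.38, -0.17 and -0.39 did not pass, with adjusted p of 0.504, 0.737 and 0.449 in limma.

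Lgr5, an R-spondin receptor gene and a stem cell marker in several epithelia, lies on chromosome 10 from 115450311 to 115587780. It stood at 4.58, 5.01 and 5.03 in involution libraries, close to the value without reads, against 7.27 and 7.08 in nulliparous libraries. Lgr5 fell by 2.30 ± 0.24 (adjusted p = 0.00455 in limma). Above the offset its mean scaled count was 7.49-fold lower, and with the offset removed and 1 added the log2 difference was -2.87. Lgr4, the broadly expressed receptor of the same family, stood at 10.35, 10.46 and 10.17 in involution libraries and at 10.28 and 10.23 in nulliparous libraries. Its difference of 0.07 had an interval from -0.20 to 0.33, and was -0.07 with libraries scaled to equal sums.

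Lgr6, the third receptor gene, had values of 6.57, 5.31 and 4.69 in involution libraries, against 9.35 and 7.25 in nulliparous libraries. The groups did not overlap, but the scaled counts above the offset were 640 and 141 within the nulliparous group, and the difference of -2.77 ± 0.75 did not pass (adjusted p = 0.067 in limma). Without involution replicate 1 it was -3.30 and passed (adjusted p = 0.0492 in limma). Rnf43, which encodes one of the ligases that R-spondins remove, had scaled counts above the offset of 93.8, 33.5 and 17.5 in involution libraries and of 233 and 61.5 in nulliparous libraries. These groups overlapped (difference -1.37 ± 0.69, adjusted p = 0.247 in limma). The other ligase gene, Znrf3, was less variable, with 8.59, 8.63 and 8.72 in involution libraries, against 8.89 and 9.15 in nulliparous libraries. Its difference of -0.37 ± 0.13 did not pass (adjusted p = 0.125 in limma).

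Lgr6, Rnf43, Wif1 and Fzd6, picked after their values were seen, had SDs from 0.45 to 0.96 in involution libraries and from 0.85 to 1.48 in nulliparous libraries, and are given beside epithelial markers, which also spread widely. All 4 were higher in nulliparous replicate 1 than in replicate 2 and, within the involution group, lowest in replicate 3, as were Krt14 and Trp63. This order is not particular to epithelial markers. The endothelial marker Pecam1, the pericyte marker Rgs5 and the macrophage marker Csf1r had it too. Other markers of these lists did not, among them endothelial Tek and Kdr, pericyte Abcc9, Kcnj8 and Cspg4, and macrophage Mertk. The luminal marker Esr1 also lacked it, and the markers with this order were not counted. The same order held for 10 of the 44 members, Fzd1, Fzd2, Fzd7, Lgr4, Tcf7 and Ctnnb1 being the others. Its share over all genes was not counted. The basal keratin gene Krt14 stood at 9.53, 8.49 and 7.18 in involution libraries and at 10.46 and 8.91 in nulliparous libraries. The basal factor gene Trp63 stood at 7.45, 6.46 and 5.53 in involution libraries and at 8.54 and 7.27 in nulliparous libraries. In limma 0 of 10 basal markers passed, and 0 had an unadjusted p under 0.05, with a median difference of -1.32. Among 14 luminal markers in limma the milk protein gene Wap rose and 0 fell, with a median of -1.15. No basal marker was at the value without reads in all libraries. The part of RNA of epithelial or other cells in the values of Lgr6, Rnf43, Wif1 and Fzd6 was not tested. Rspo1, Lgr5, Tcf7 and Fzd4 had SDs from 0.16 to 0.26 in involution libraries and from 0.04 to 0.41 in nulliparous libraries. They are the members that passed in every alternative in which they were tested. A small spread within groups favours such a pass, so the contrast with the 4 picked genes follows in part from the choice. Lgr5 was also close to the value without reads in involution libraries, where the log2 spread is understated.

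**Figure D3:**
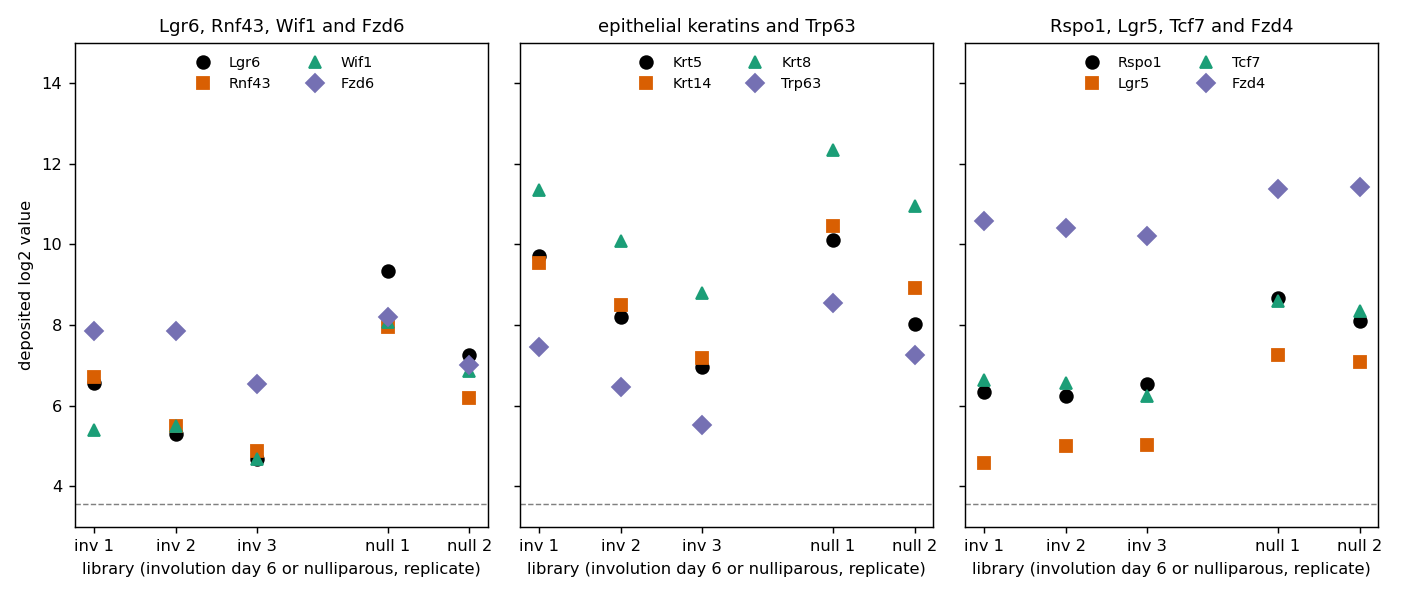
Deposited log2 values (vertical axis) by library, with involution libraries left of nulliparous libraries, for Lgr6, Rnf43, Wif1 and Fzd6 (left panel), the epithelial markers Krt5, Krt14, Krt8 and Trp63 (middle) and Rspo1, Lgr5, Tcf7 and Fzd4 (right). The dashed line is the value without reads. Krt14 ranges from 7.18 to 9.53 within the involution group, Lgr6 from 4.69 to 6.57, and Rspo1 from 6.23 to 6.55. In nulliparous replicates 1 and 2 Rspo1 is at 8.68 and 8.10. The genes of the left panel were picked for wide spread, and those of the right panel passed in every alternative in which they were tested.

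Of 8 tested genes in the antagonist list, which holds secreted antagonists and the receptor gene Kremen1, Dkk3 rose and Wif1 fell in limma. That is 12.5% each way, beside 6.65% of all genes tested higher and 4.66% lower. At an unadjusted p under 0.05, 1 was higher and 2 were lower, where all genes had 14.5% each way. Dkk3 encodes a divergent member of the Dickkopf family, whose effect on Wnt signals differs between cell types. It lies on chromosome 7 from 112116017 to 112159057. It stood at 12.71, 13.09 and 12.76 in involution libraries, against 11.40 and 11.94 in nulliparous libraries. Each involution library lay above both nulliparous libraries. Dkk3 rose by 1.19 ± 0.19 (adjusted p = 0.0148 in limma), a 2.26-fold higher mean scaled count. Without nulliparous replicate 1 the difference was 0.92 and did not pass (adjusted p = 0.0629 in limma), and in the test of all rows with reads the adjusted p was 0.0807.

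Wif1 encodes a secreted protein that binds Wnt ligands and lies on chromosome 10 from 121033960 to 121100650. It stood at 5.39, 5.51 and 4.69 in involution libraries, against 8.08 and 6.87 in nulliparous libraries. It fell by 2.27 ± 0.43 (adjusted p = 0.0244 in limma), or 6.99-fold in the mean scaled count above the offset. The call did not hold without involution replicate 2 or 3 (adjusted p = 0.0673 and 0.0532 in limma) or without nulliparous replicate 1, where the difference was -1.67 (adjusted p = 0.103). Dkk2, an LRP-binding antagonist gene, had nearly identical values of 9.52, 9.50 and 9.49 in involution libraries, against 9.90 and 10.64 in nulliparous libraries. The groups did not overlap, and the difference of -0.77 ± 0.21 did not pass (adjusted p = 0.0691 in limma), while without nulliparous replicate 1 it was -1.14 and passed (0.0251).

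None of the tested SFRP genes passed. Sfrp2 stood at 13.98, 14.52 and 14.13 in involution libraries and at 13.79 and 13.90 in nulliparous libraries, a difference of 0.36 with an interval from -0.04 to 0.77 (adjusted p = 0.21 in limma). Sfrp1 differed by 0.28 with an interval from -0.15 to 0.72, and Sfrp4 by -0.32 with an interval from -0.95 to 0.32. SFRP proteins carry a Frizzled-like domain that binds Wnt proteins. Kremen1, a receptor gene for Dickkopf proteins, differed by 0.16 (from -0.10 to 0.42). Frzb was weakly expressed, at 5.83, 5.75 and 5.82 in involution libraries and at 5.27 and 5.97 in nulliparous libraries. Sfrp5, Dkk1 and Notum were not tested, with means of 3.97, 3.72 and 3.65 in involution libraries and 4.30, 3.68 and 3.78 in nulliparous libraries.

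Of 8 tested effector and feedback genes, Tcf7 and Tcf7l1 fell and 0 rose in limma. That is 25.0% lower, beside 4.66% of all genes tested lower and 6.65% higher. At an unadjusted p under 0.05, 3 were lower and 2 higher, against 14.5% of all genes each way. Tcf7 encodes TCF1, a DNA-binding partner of beta-catenin, and lies on chromosome 11 from 52252371 to 52283014. It stood at 6.65, 6.56 and 6.23 in involution libraries, against 8.60 and 8.36 in nulliparous libraries. Tcf7 fell by 2.00 ± 0.20 (adjusted p = 0.00443 in limma), 4.43-fold in the mean scaled count above the offset. TCF1 is also a factor of T cells. The T cell receptor complex gene Cd3d stood at 4.08, 4.12 and 4.09 in involution libraries, against 4.78 and 4.84 in nulliparous libraries, and Cd3g at 4.51, 4.11 and 4.10 in involution libraries, against 4.77 and 4.85 in nulliparous libraries. In scaled counts above the offset, Cd3d was at 5.01, 5.53 and 5.13 in involution libraries and 15.6 and 16.9 in nulliparous libraries. Tcf7 was at 88.7, 82.3 and 63.1 in involution libraries and at 375 and 316 in nulliparous libraries on the same scale. Cd3d was below the filter. In the test of all rows with reads it fell by 0.72 (adjusted p = 0.0427 in limma) and was the only one of 13 T cell and innate lymphoid markers called. The third CD3 gene, Cd3e, went the other way, at 8.23, 9.68 and 9.05 in involution libraries, against 7.40 and 7.44 in nulliparous libraries, a difference of 1.56 ± 0.39 (adjusted p = 0.055 in limma). Lck and Cd4 differed by 0.26 and 0.39 (adjusted p = 0.518 and 0.384 in limma). Of the 11 markers above the filter 0 passed in limma. At an unadjusted p under 0.05 Cd3e was higher and 0 were lower. The part of T cell RNA in the fall of Tcf7 was not tested.

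Tcf7l1, a member that often represses its targets, had scaled counts above the offset of 2150, 2030 and 2390 in involution libraries, against 2970 and 3140 in nulliparous libraries. The groups did not overlap, and Tcf7l1 fell by 0.48 ± 0.09 on the log2 scale (adjusted p = 0.0275 in limma). It did not pass without involution replicate 1 or 2 (adjusted p = 0.0809 and 0.0868 in limma), nor without nulliparous replicate 1 or 2 (0.0946 and 0.127). Tcf7l2 stood at 10.82, 11.01 and 10.90 in involution libraries, above both nulliparous libraries at 10.50 and 10.65, and its difference of 0.33 ± 0.10 did not pass (adjusted p = 0.0768 in limma). Lef1 was close to the value without reads, at 3.98, 3.95 and 4.26 in involution libraries, against 4.41 and 5.16 in nulliparous libraries, and was not tested.

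Ctnnb1, the beta-catenin gene, stood at 14.60, 14.57 and 14.26 in involution libraries, above both nulliparous libraries at 14.05 and 13.87. The difference of 0.51 ± 0.14 did not pass (adjusted p = 0.0635 in limma), but without involution replicate 3 it was 0.62 and passed (0.0359). Ctnnb1 shares 759 exon bases with Ulk4 on the opposite strand, and the kit does not mark strand. Ulk4 had a mean of 6.67. Axin2, a feedback inhibitor that is a widely used readout of canonical signals, gave no difference beyond its spread. It stood at 10.57, 10.70 and 10.43 in involution libraries and at 10.48 and 11.06 in nulliparous libraries, a difference of -0.21 with an interval from -0.64 to 0.23, and of 0.08 without nulliparous replicate 2. The scaffold gene Axin1 differed by -0.12 (from -0.31 to 0.08).

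The Dishevelled-binding feedback gene Nkd1 stood at 9.48, 10.15 and 9.54 in involution libraries, against 10.22 and 10.75 in nulliparous libraries, a difference of -0.76 ± 0.25 (adjusted p = 0.107 in limma). The groups of Nkd1 lay close together without overlapping. Its paralogue Nkd2 spread widely in the involution group, with a mean of 10.52 ± 0.63, against 10.93 ± 0.14 in the nulliparous group (SD, n = 3 and 2). Its difference was -0.41 (adjusted p = 0.475 in limma).

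To compare levels between genes, scaled counts above the offset were divided by the length of the merged exons. Among receptors, Fzd1 had the highest Frizzled level per kb, at 2460 in involution and 2980 in nulliparous libraries, followed by Fzd7 (963 and 1240), Fzd2 (636 and 869) and Fzd4 (200 and 400). In both groups the library ranges of these 4 genes did not overlap. Below them, the ranges of Fzd5 and Fzd8 overlapped in the nulliparous libraries, at 58.1 to 88.2 and 70.0 to 97.9, while in the involution libraries Fzd5, at 59.5 to 85.4, lay below Fzd8, at 92.1 to 109. Fzd10 was at 41.8 in involution and 74.7 in nulliparous libraries, Fzd6 at 35.8 and 41.5 and Fzd3 at 22.3 and 24.7, and the involution ranges of Fzd10 and Fzd6, 32.1 to 50.7 and 16.8 to 45.3, overlapped. Of the other receptors Ryk was at 1200 in involution and 1130 in nulliparous libraries, Lrp6 at 906 and 849, Lrp5 at 446 and 470, Ror2 at 417 and 609 and Ror1 at 338 and 372.

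Sfrp2 had the highest level per kb of all members, 8900 in involution and 6830 in nulliparous libraries. Ctnnb1 followed at 4410 in involution and 3080 in nulliparous libraries, and in nulliparous libraries its range overlapped that of Fzd1. Dkk3 was at 2220 in involution libraries, with a range from 1990 to 2600 that overlapped that of Sfrp1, 2360 to 3460. In nulliparous libraries Dkk3 was at 982 and lay below Sfrp1, which was at 2210. Of the R-spondin module Lgr4 was at 217 in involution and 206 in nulliparous libraries, Rspo1 at 36.8 and 171, Znrf3 at 49.4 and 64.5 and Lgr5 at 1.73 and 12.9. Rspo1 lay below Znrf3 in each involution library and above it in each nulliparous library. Among the TCF genes Tcf7l1 was at 558 in involution and 779 in nulliparous libraries, Tcf7l2 at 218 and 173 and Tcf7 at 29.7 and 132, so that Tcf7l1 was the most abundant in both groups.

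**Figure D4:**
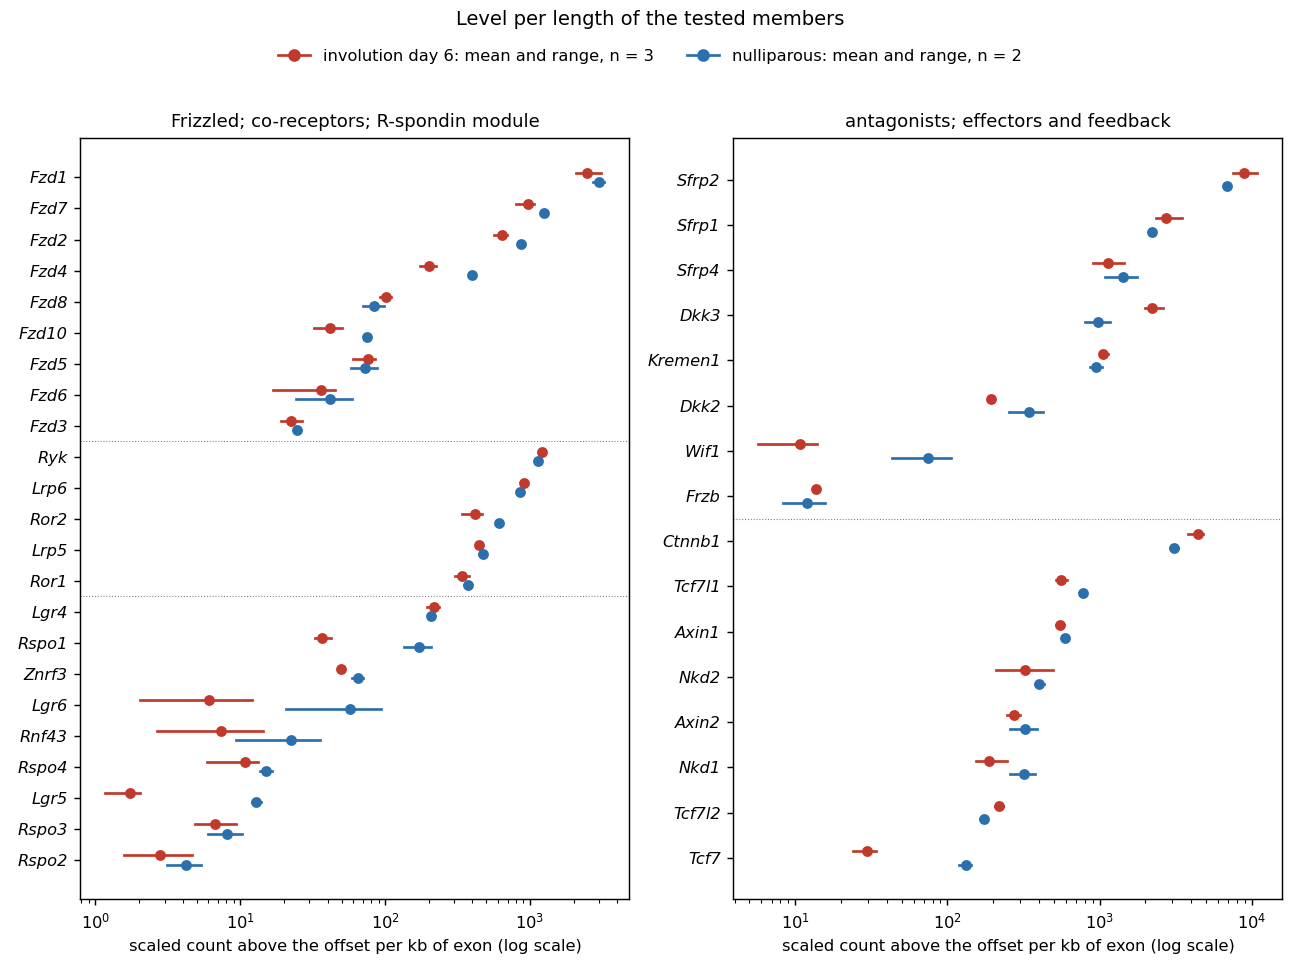
Scaled count above the offset per kb of merged exon (horizontal axis, log scale) of the 39 tested members, with the mean as a point and the range over libraries as a line, involution libraries in red above nulliparous libraries in blue. Dotted lines part the roles, and genes are ordered by the nulliparous mean within each role. Sfrp2 is highest, at 8900 in involution and 6830 in nulliparous libraries, and Lgr5 is at 1.73 in involution and 12.9 in nulliparous libraries.

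Other genes of the Wnt pathway were also called more often lower than higher. Of 113 genes in 5 lists, 100 passed the filter, and 6 rose and 16 fell in limma, or 6.0% and 16.0%, beside 6.65% and 4.66% of all genes tested. Their median difference was -0.17, and with libraries scaled to equal sums 26 fell. Without 1 library, fewer of all genes were called too. For the other pathway genes the counts were 4 higher and 9 lower without involution replicate 1, 3 and 8 without replicate 2, and 4 and 12 without replicate 3. They were 1 and 6 without nulliparous replicate 1 and 6 and 5 without replicate 2. In the test of all rows with reads 0 rose and 4 fell in limma, while 12 were higher and 32 lower at an unadjusted p under 0.05, where 9.36% of all rows with reads were higher and 10.6% lower. Wnt4, Wnt5a, Wnt6 and Trabd2b passed in each of the 12 alternatives. Wnt2b and Cthrc1 did not pass in the test of all rows with reads (adjusted p = 0.0516 and 0.0543 in limma), and each of the other 16 calls was lost without at least 1 library.

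Of 14 tested ligand genes 5 fell and 0 rose in limma, or 35.7% lower, beside 4.66% of all genes tested lower and 6.65% higher. At an unadjusted p under 0.05, 8 were lower and 1 higher, against 14.5% of all genes each way. Wnt4, which encodes a ligand induced by progesterone in luminal cells, fell by 2.61 ± 0.16 (adjusted p = 0.00214 in limma), beside falls of 2.13 for Wnt6, 2.03 for Wnt2b, 1.74 for Wnt10a and 1.08 for Wnt5a. Of 13 secretion and other extracellular genes 2 rose and 3 fell, or 15.4% and 23.1%, beside 6.65% and 4.66% of all genes. Trabd2b, which encodes a protease that inactivates Wnt proteins, stood at 10.97, 11.02 and 11.22 in involution libraries, against 12.34 and 12.20 in nulliparous libraries. It fell by 1.20 ± 0.10 (adjusted p = 0.00322 in limma). Cthrc1, a secreted protein gene linked to the polarity branch, stood at 11.96, 12.60 and 12.13 in involution libraries, against 10.28 and 10.68 in nulliparous libraries, and rose by 1.75 ± 0.21 (adjusted p = 0.00664 in limma). Draxin rose by 1.74, and Apcdd1, which encodes a membrane inhibitor, and the glypican gene Gpc4 fell by 0.88 and 0.52.

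Inside the cell, 3 of 32 tested relay genes fell and 0 rose in limma. That is 9.38% lower, beside 4.66% of all genes tested lower and 6.65% higher. The share called in either direction, 9.38%, was near the 11.3% of all genes. At an unadjusted p under 0.05, 9 were lower and 1 higher, where all genes had 14.5% each way. The relay genes that fell were Dvl1, a Dishevelled gene (by 0.47), the beta-catenin cofactor gene Bcl9l (by 0.55) and the corepressor gene Tle2 (by 0.61). In the planar polarity and calcium branch, 1 of 24 tested genes rose and 3 fell, or 4.17% and 12.5%, beside 6.65% and 4.66% of all genes. Camk2a, a calcium-dependent kinase gene, rose by 1.23, and the formin gene Daam2, the phospholipase gene Plcb4 and the receptor gene Ptk7 fell by 0.93, 0.60 and 0.55. Of 17 other genes reported as targets in various tissues, 3 rose and 2 fell, or 17.6% and 11.8%, beside the same shares of all genes. Wisp2 rose by 1.16 ± 0.15 (adjusted p = 0.00764 in limma), Wisp1 by 0.80 and Fgf20, which was near the value without reads in nulliparous libraries, by 1.39. Tnfrsf19 fell by 1.66 and Cd44, a hyaluronan receptor gene, by 0.39.

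**Figure D5:**
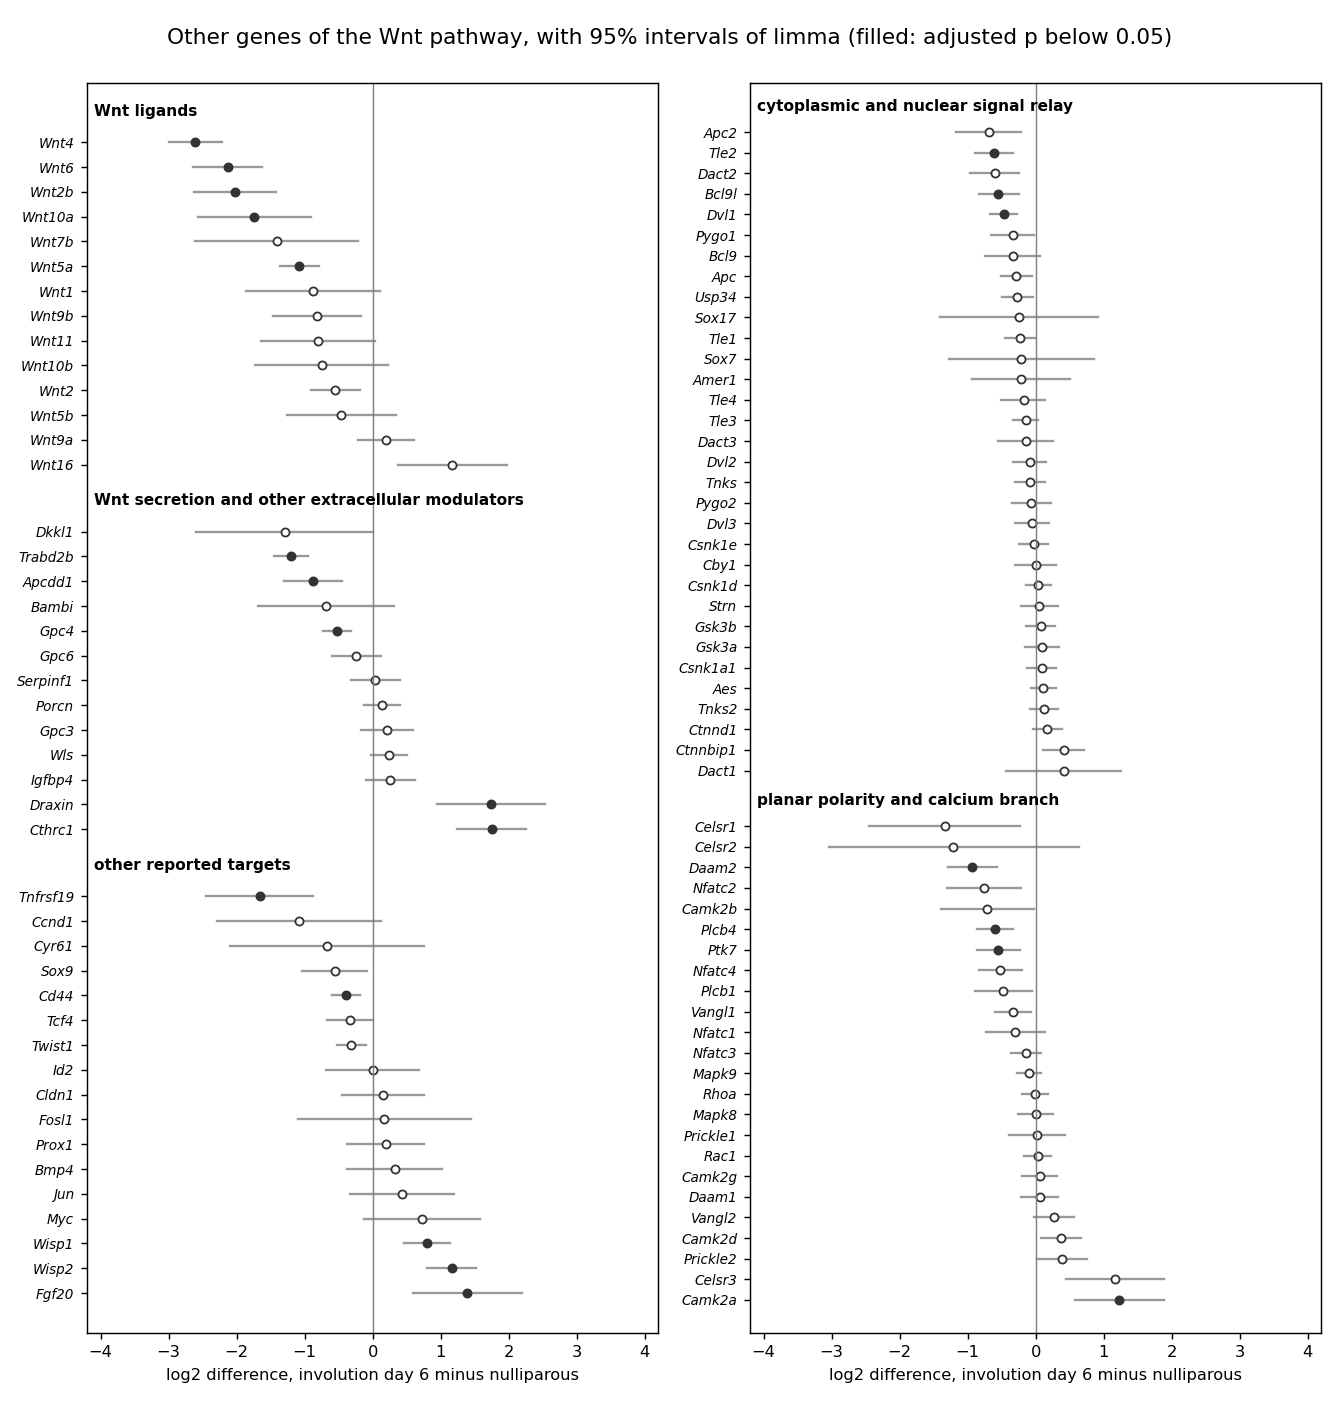
Log2 difference, involution day 6 minus nulliparous (horizontal axis), with the 95% interval from limma, of the 100 tested genes in 5 other lists of the Wnt pathway. Filled points passed at an adjusted p under 0.05, with 6 right and 16 left of 0, and Wnt4 lies farthest left at -2.61.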

How the data were processed

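The authors deposited 1 table of log2 values for 5 libraries. Reads were handled with bcl2fastq and STAR 2.4.2a on GRCm38, per the submitters' processing notes. PDGFRa+ cells were sorted by flow cytometry, and libraries made with an Illumina kit that does not mark strand, per the labels' protocols. For the counting tool, the annotation, the scaling and the offset, nothing is given in the sources used here. Of 45706 rows, 17395 held 1 common value per library (3.57, or 11.85 unlogged), which was read as a gene without reads. Read depth per library is unknown, so no counting interval is given.

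From the deposited log2 values, groups were compared with limma 3.58.1 in R 4.3.3 (trended prior variance, two-sided, no covariates), over 15912 genes with a mean of at least 4.45, with Benjamini-Hochberg adjustment and a threshold of 0.05. In simulated data for this comparison over 15912 genes, 53% of genes changed 2-fold and 81% of those changed 4-fold were called. There 100 genes were changed at each fold, with noise drawn separately for each gene, and 6 unchanged genes were called. The real data had more calls, 1800 against 140, so these shares may not hold for them. Levels above the offset are unlogged values minus 11.85, and lengths and coordinates are from GENCODE on GRCm38, in which 44 of 44 members were found. Promoter sequences are from RefSeq.

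Alternatives were another filter, no filter beyond rows without reads, no trend, libraries scaled to equal sums, quantile normalization, the offset removed and 1 added, a replicate block, and each library left out. All members could be named, and of the other pathway genes those past the threshold. The members, lists and tests were chosen with earlier results of these data known.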

Additional observations from a re-analysis of the deposited data

How the results depend on the processing

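When all rows with reads were tested, limma called 322 genes higher and 235 lower, 0 and 4 among the members and 0 and 4 among the other pathway genes. Without a trend of the prior variance the counts were 686 and 482 for all genes and 3 and 8 for the other pathway genes. With libraries scaled to equal sums, 1731 genes, 13 members and 26 other pathway genes were lower. Leaving out 1 library gave 296 to 786 genes higher and 208 to 483 lower, 0 to 2 and 4 to 6 members, and 1 to 6 and 5 to 12 other pathway genes. Where a nulliparous library was left out, the lone sample is assumed to vary like the other group. The cause of these shifts was not tested, and leaving out a library also makes the number of libraries smaller.

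With replicate number as a block, limma called 1817 genes higher and 1449 lower, 3 and 14 members, and 12 and 29 other pathway genes. The deviations of libraries with the same number correlated at 0.577 for number 1 and 0.063 for number 2. Those of involution replicate 3 and nulliparous replicate 2, which share no number, correlated at 0.51. The labels do not say that numbers mark a shared litter or day, so a pairing is not known.

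Signs turned for members that were not called. Fzd5 was at -0.08 with equal sums, -0.04 with the block and between -0.24 and 0.35 with 1 library left out. Fzd6 was at 0.24 with the block and between -0.80 and 0.40. Lrp6 was at -0.05 with equal sums and -0.04 with quantile normalization, Ryk at -0.05 and Lgr4 at -0.07 with equal sums. With 1 library left out, Lgr4 lay between -0.00 and 0.15, Rspo3 between -0.43 and 0.08, Sfrp4 between -0.66 and 0.03, Frzb between -0.17 and 0.53 and Axin2 between -0.50 and 0.08.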
